A study of Drosophila melanogaster with 800 samples.

Results

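Male fruit flies of 40 lines with the highest and 40 lines with the lowest level of 7 late testis transcripts were compared, out of 200 inbred lines of Drosophila melanogaster. The 7 ranking genes were Mst87F, Mst84Da, Mst84Db, Mst84Dd, Mst98Ca, Mst98Cb and dj. For each line their log2 values were averaged over both male libraries, and the lines were chosen by this score: the 40 highest formed the high class and the 40 lowest the low class. Both classes together held 160 of the 800 libraries of the series, with the other 120 lines in between. The lines came from the Drosophila Genetic Reference Panel, a set of sequenced lines derived from wild-caught females by 20 generations of full-sib mating, and they carry no transgene. Flies of both classes were mated, 3 to 5 days old, reared at 25 °C on cornmeal-molasses medium and frozen whole. Each male library came from a pool of 30 males and each female library from a pool of 25 females, with 2 pools per line and sex. No treatment was applied to either class.

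In the fly testis, germline stem cells give rise to spermatogonia and then to spermatocytes, which grow and transcribe most of the genes used later in sperm formation. Transcription in spermatocytes depends on testis-specific forms of general regulators, encoded by the meiotic arrest genes. After meiosis, spermatids elongate, replace histones with protamine-like proteins and build a long tail from stored messenger RNA. The Mst84D, Mst87F and Mst98C genes encode cysteine- and glycine-rich structural proteins of the sperm tail, and dj (don juan) encodes another sperm protein made in elongating spermatids. In libraries of whole flies, fewer testis cells and less testis RNA per cell cannot be told apart.

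The deposited values are log2 FPKM, that is fragments scaled by exon length and by library size. The floor of the scale is the log2 of 0.001. Depth read from the steps between low values ran from 7.87 to 30.4 M reads (megareads) in the 400 male libraries, with a median of 11.3 M. These are the smallest depths that turn low values into whole reads, and since any whole multiple of them would do so too, they are lower estimates. The median was 11.7 M in low-class and 11.2 M in high-class male libraries, and the median share of features at the floor was 26.5% and 26.0%. The mean level of 155 small nucleolar RNAs had a median of 4.46 in the low class (3.35 to 5.37) and of 4.53 in the high class (3.44 to 5.62). The labels do not say which of the 50 sequencing pools held a library, so values within pools cannot be given.

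The line score ran from 6.68 to 9.38 over the 200 lines, with a median of 8.60 and an SD of 0.34. In the low class it lay between 6.68 and 8.33 (mean 8.08 ± 0.35, SD, n = 40 lines). In the high class it lay between 8.81 and 9.38 (mean 8.95 ± 0.12, SD, n = 40 lines). Lines 642, 461, 443, 799 and 802 had the highest scores, from 9.13 to 9.38. The lowest were lines 325, 595, 223, 75 and 357, from 6.68 to 7.62. The cuts fell inside a continuous run of lines. Line 181, the last of the low class, and line 832, the first outside it, both had 8.33, and line 377 at 8.81 lay just below line 790, the first of the high class, also at 8.81.

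The score of a line was repeated in its other pool of males. Over 200 lines the score of replicate 1 and the score of replicate 2 had a Pearson r of 0.795 and a Spearman rho of 0.693, each with a permutation p of 1e-05, the smallest that 100000 permutations can give (1 pair of measures was tested). Without the 2 lines farthest from the median, r was 0.755. Classes made from 1 replicate alone shared 21 high lines and 24 low lines, and 3 lines were high in 1 replicate and low in the other.

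**Figure D1:**
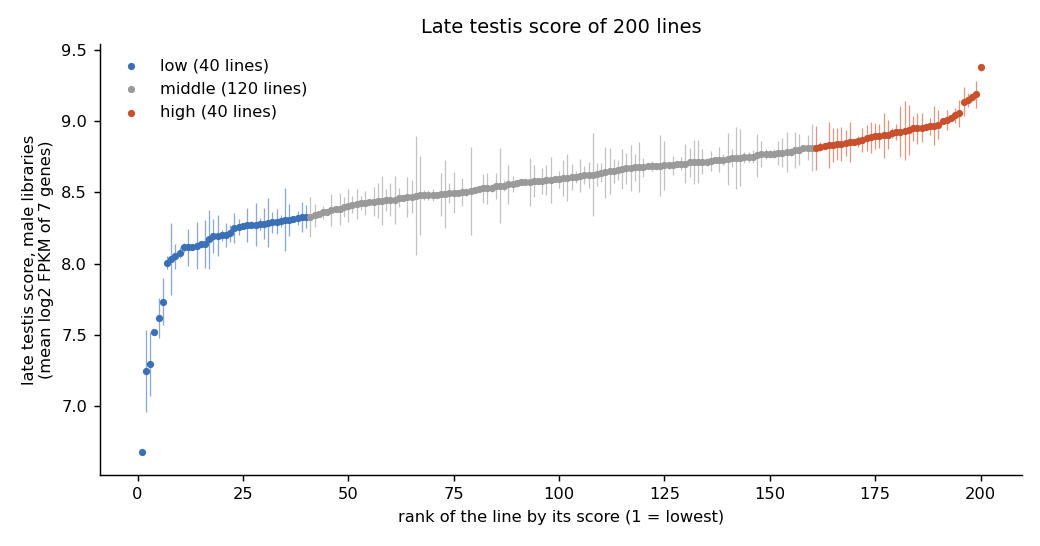
Late testis score (mean log2 FPKM of the 7 ranking genes in males) against the rank of the line, for 200 lines coloured by class. Points are line means and vertical lines join the scores of the 2 replicate libraries. The scores rise smoothly from 8.01 to 9.19, with 6 lines below that run and line 642 above it at 9.38.

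The ranking genes themselves chose the lines, so their levels are given as a description. Mst87F, a sperm tail protein gene, ran from 8.29 to 9.86 with a median of 9.10 in the low class. It ran from 9.59 to 10.11 with a median of 9.75 in the high class, and the classes overlapped. For dj the low class ran from 7.31 to 9.12 (median 8.11) and the high class from 8.31 to 9.78 (median 8.79). Mst98Ca had medians of 7.56 and 8.17, and its neighbour Mst98Cb of 6.83 and 7.50. The differences of class means, high minus low, were 0.66 for Mst87F, 0.72 for dj, 0.60 for Mst98Ca and 0.67 for Mst98Cb. They were wider for the Mst84D genes, at 0.86 for Mst84Da, 1.04 for Mst84Db and 1.49 for Mst84Dd. In 400 female libraries each ranking gene was at the floor in 101 (Mst87F) to 228 (Mst84Dd) libraries, and the highest female value of any of them was 3.65, for Mst84Da.

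**Figure D2:**
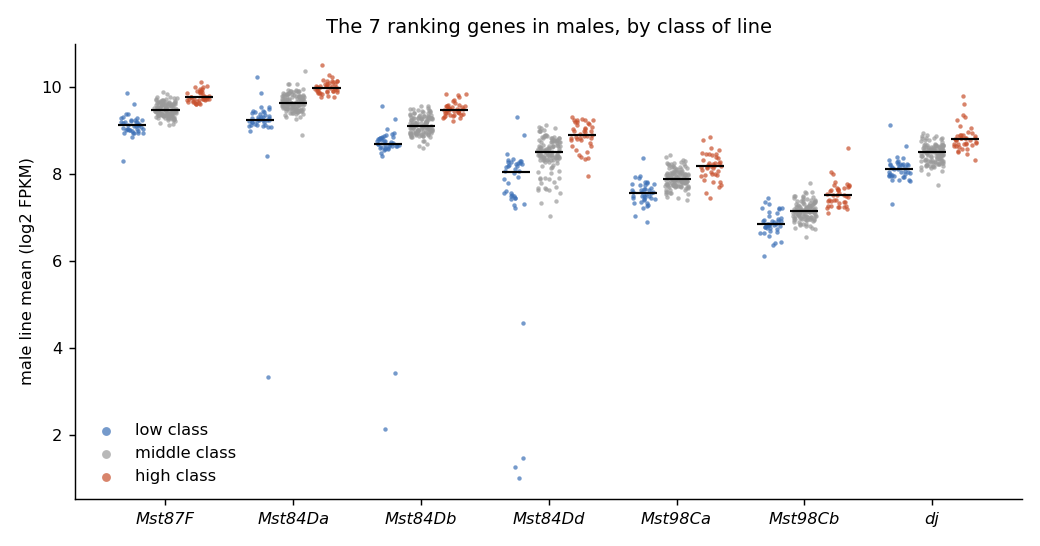
Male line means (log2 FPKM) of the 7 ranking genes for lines of the low, middle and high class. Each point is a line and bars are class medians; single low-class lines sit far below the rest for Mst84Da, Mst84Db and Mst84Dd only.

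Single lines nearly lacked 1 member of the Mst84D cluster. The 4 genes of the cluster, Mst84Da to Mst84Dd, are neighbouring copies on chromosome arm 3R. In 7 lines a ranking gene lay more than 2 log2 units below its median over all lines, always an Mst84D gene and always in both male libraries. All 7 lines were in the low class, but these genes are part of the score, so a low copy by itself moved its line down the ranking. With lines ranked by the median of the 7 centred genes instead, 5 of the 7 were in the low class. Mst84Dd, with a median of 8.45 over lines, had 1.32 and 1.17 in line 75, 1.33 and 1.62 in line 223, 1.56 and 0.44 in line 595, and 4.51 and 4.63 in line 853. Mst84Db, with a median of 9.12, had 1.80 and 2.47 in line 325 and 3.44 and 3.38 in line 189. Mst84Da, with a median of 9.63, had 3.16 and 3.51 in line 357. No line was that far below the median for Mst87F, Mst98Ca, Mst98Cb or dj. Without these lines the SD over lines fell from 1.03 to 0.48 for Mst84Dd, from 0.70 to 0.30 for Mst84Db and from 0.54 to 0.30 for Mst84Da.

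In most of these lines the neighbouring copies stayed near their medians. In line 75 the other Mst84D genes lay 0.06 to 0.44 above their medians, and in line 357 they lay between -0.00 and 0.43. In line 189 they were 0.60 to 0.85 above, and Mst87F at 9.86 and dj at 9.12 were the highest of the low class, so Mst84Db was the 1 ranking gene that lay far below its median there. Line 325 differed from these. Its other Mst84D genes lay 0.83 to 1.24 log2 units below their medians, and its Mst87F (8.29), Mst98Cb (6.11) and dj (7.31) were each the lowest of the low class. Without the 7 lines, the Mst84Dd level of the low class ran from 7.22 to 8.46 (33 lines), and the high-minus-low difference, with the classes drawn again, was 0.92.

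Mst84Dc, the copy that was not used for ranking, showed the same kind of line. It had a median of 9.14 and was at the floor in both male libraries of line 45. It had 2.60 and 2.46 in line 360, 3.02 and 2.66 in line 737, 3.10 and 2.26 in line 908, and 4.69 and 4.44 in line 721. Lines 45, 360, 721 and 737 were in the middle class and line 908 was in the high class. Across the cluster, 12 lines thus had 1 strongly reduced copy each and none had 2.

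The authors' table of sequence variant density per gene, a log2 value whose unit is not stated in the sources used here, was set beside these lines. Lines 75, 223 and 595, which had the lowest Mst84Dd levels, shared a Mst84Dd density of 6.18, the highest of all lines and found in no other. The next line, line 239, had 4.98, and its Mst84Dd levels were 8.23 and 7.85. Line 853 was listed with no Mst84Dd variant, as were lines 325 and 189 for Mst84Db. Line 357 had a Mst84Da density of 1.49, a value shared by 77 lines, and line 821, with the highest Mst84Da density of 6.01, had levels of 9.65 and 9.66. The 4 copies are alike in sequence and reads could be split among them, so a level of 1 copy is less certain than the level of the cluster. The part of sequence variants in these levels was not tested.

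**Figure D3:**
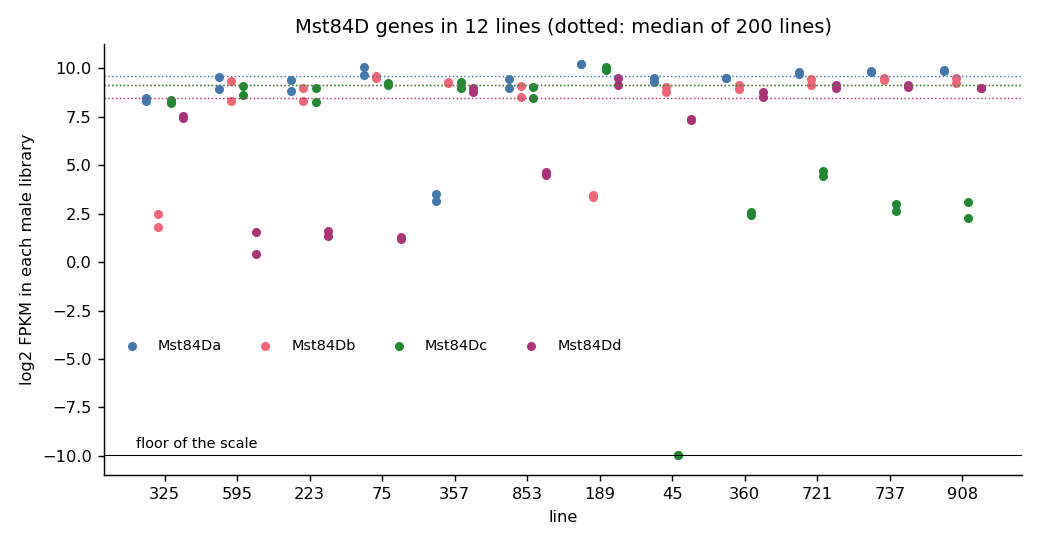
Log2 FPKM of the 4 Mst84D genes in each male library of the 12 lines in which 1 copy lay more than 2 log2 units below its median over 200 lines (dotted lines). The 7 lines on the left are in the low class. In each line 1 copy is below that limit and the other 3 are not, though in line 325 these lay 0.83 to 1.24 below their medians. Mst84Dc in line 45 is at the floor of the scale.

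Whether other genes followed the ranking genes was tested in libraries that had not ranked the lines. Classes made from replicate 1 were tested in replicate 2 and the reverse, with limma, and a gene was called when the Benjamini-Hochberg adjusted p was below 0.05 in both tests with the same sign. Of 15010 genes tested, 2910 were called higher in the high class, 19.4% of the genes tested, and 177 were called lower, 1.18%. No gene had all 40 high lines above, or all below, the 40 low lines. Calls were made over lines, with 1 library per line in each test. The p-values thus measure the spread between lines and between pools of a line together. The 7 ranking genes were left out of these counts. For Mst87F the difference was 0.48 ± 0.06 (SE) in replicate 2 and 0.49 ± 0.06 in replicate 1, against 0.66 between the classes ranked on both libraries, which restates that the score was repeated in the other pool.

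Genes of sperm chromatin and late spermatids moved as a group with the ranking genes. Of 22 such genes tested, 21 were called higher and none lower, beside 19.4% of all genes tested, with a median difference of class means of 0.64 (0.53 to 0.73), against 0.04 over all genes tested. ProtB, a protamine-like protein that packs sperm DNA, averaged 7.41 ± 0.45 in the low class and 8.14 ± 0.34 in the high class (SD, n = 40 lines each). The low class of ProtB ran from 5.57 to 8.16 and the high class from 7.12 to 8.90, so the classes overlapped. In the held-out libraries ProtB differed by 0.59 ± 0.10 and 0.54 ± 0.10 (SE), with limma adjusted p of 4.47e-07 and 5.36e-06. Reads of ProtB and its near-identical neighbour ProtA could be split between them. Loopin-1 and S-Lap5, leucyl aminopeptidases that are abundant sperm proteins, differed by 0.68 and 0.67. For loopin-1 the low class ran from 8.09 to 9.58 with a median of 8.92, and the high class from 9.41 to 9.98 with a median of 9.56. The gene gdl (gonadal), which has testis and ovary transcripts, had medians of 3.40 and 4.03. The 1 gene not called was Mst84Dc, at 8.74 ± 0.32 and 9.30 ± 1.09 (SD, n = 40 lines each), whose high class includes line 908.

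Genes transcribed after meiosis moved by a similar amount. The comet and cup genes are transcribed in spermatids and their RNA gathers at the spermatid tail ends. Of 16 tested, 15 were called higher, beside 19.4% of all genes tested, with a median difference of 0.63. Their largest differences were 0.69 for c-cup, 0.69 for sunz, 0.67 for p-cup and 0.66 for whip. For whip the low class ran from 4.58 to 6.23 (median 5.47) and the high class from 5.89 to 6.74 (median 6.12). S-cup was the exception, with ranges of 0.79 to 2.27 and 0.28 to 2.90. The listed genes swif, hubl and cola were at the floor in every male library and were not tested.

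Spermatocyte genes came next in size. All 13 tested were called higher, beside 19.4% of all genes tested, with a median difference of 0.56 and a range of 0.20 to 0.66. Cyt-c-d, the testis form of cytochrome c used in sperm individualization, had a low-class range of 6.75 to 8.22 (median 7.48) and a high-class range of 7.78 to 8.55 (median 8.12). Pglym87, a testis-expressed phosphoglycerate mutase copy, differed by 0.66, and the testis proteasome subunits Prosalpha4T2 and Prosalpha6T by 0.65 each.

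Regulators of the spermatocyte programme were mostly called as well. Of 10 meiotic arrest genes tested, 9 were called higher, beside 19.4% of all genes tested, with a median difference of 0.47. Topi, a zinc finger protein of the testis meiotic arrest complex, had medians of 2.73 and 3.41. Comr, of the same complex, averaged 0.52 ± 0.37 and 1.01 ± 0.31, and can and nht, testis forms of general transcription factor subunits, differed by 0.54 and 0.48 (SD, n = 40 lines each). Tomb, at 1.66 ± 0.41 and 2.11 ± 0.37, was called in 1 of the 2 tests, with limma adjusted p of 0.0791 and 0.00365.

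Y-linked genes, a list of fertility genes and other genes of the Y chromosome, were measured in 7 cases. Of these, 4 were called higher, beside 19.4% of all genes tested. ORY differed by 0.64, ARY by 0.64, Ppr-Y by 0.60 and kl-2, an axonemal dynein heavy chain, by 0.53. For ARY the low class ran from 2.66 to 3.92 and the high class from 3.73 to 4.62. Pp1-Y1, Pp1-Y2 and FDY were not called. Pp1-Y1 was at the floor in 31 male libraries.

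Early germ line genes gave smaller and less certain differences. Of 6 tested, 3 were called higher, beside 19.4% of all genes tested, with a median difference of 0.35. Bgcn, a partner of the differentiation factor bam, had medians of 2.67 and 3.22. The Argonautes of the piRNA pathway, aub and AGO3, averaged 1.31 ± 0.47 and 1.98 ± 0.49 in the low class and 1.67 ± 0.42 and 2.37 ± 0.50 in the high class (SD, n = 40 lines each). Piwi, tut and tej were not called, and bam and zpg were below the filter on low values.

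In the held-out libraries the list medians were 0.50 and 0.51 for sperm chromatin and late spermatid genes, in replicate 2 and replicate 1. The comet and cup genes had 0.52 and 0.48, the Y-linked genes 0.50 and 0.45, the spermatocyte genes 0.46 and 0.45, and the meiotic arrest genes 0.38 and 0.38. Early germ line genes had 0.33 and 0.36. Differences between lists were not tested, and the order of the first 2 lists was not the same in both replicates.

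Markers of the somatic testis cells gave calls in both directions. Of 6 tested, 2 were called higher, beside 19.4% of all genes tested, 1 was called lower, beside 1.18%, and 3 were not called. Their median difference was -0.01 between the classes and 0.09 and 0.06 in the held-out libraries, where 5 and 4 of the 6 were positive. Eya, a co-activator in cyst cells, averaged 2.63 ± 0.17 in the high class with medians of 2.39 and 2.64 in the low and the high class. Chinmo averaged 2.28 ± 0.20 and 2.41 ± 0.23, and Egfr 4.65 ± 0.17 and 4.53 ± 0.15 (SD, n = 40 lines each). These genes are used in many other tissues of the whole fly.

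**Figure D4:**
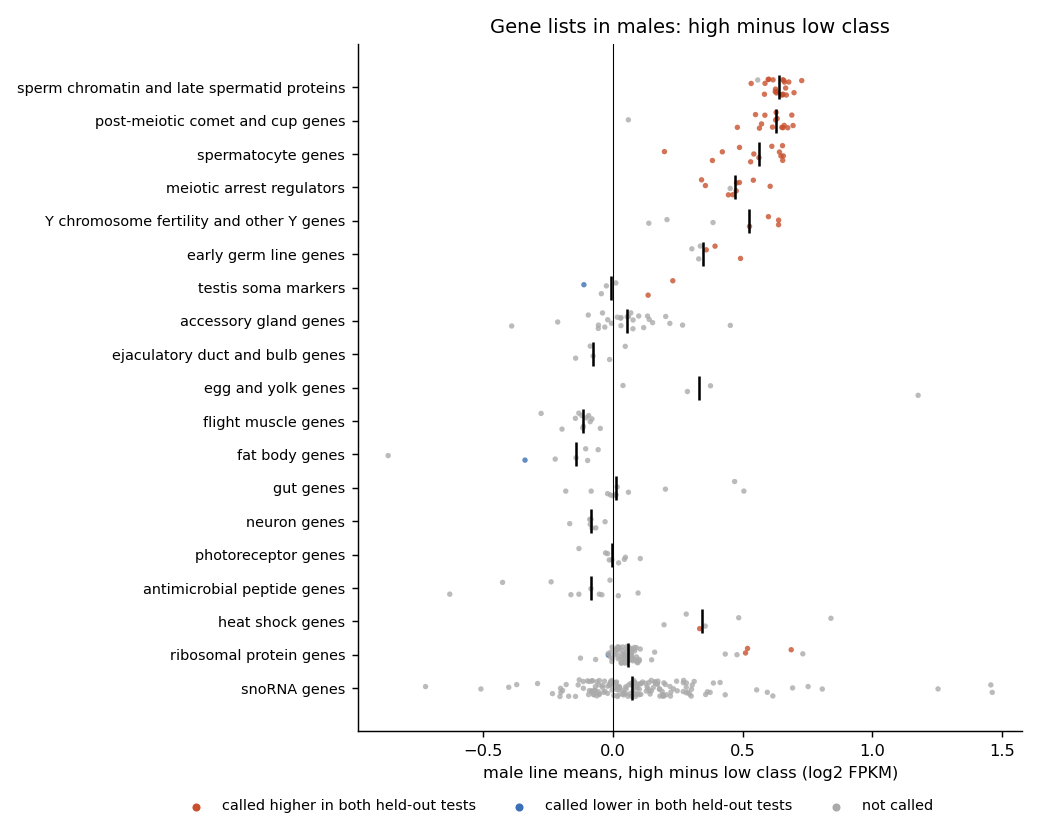
Difference of male line means between the high and the low class (log2 FPKM) for each tested gene of 19 lists, coloured by the held-out call, with black bars at list medians. The germ line lists at the top have medians of 0.35 to 0.64, and the lists of other tissues have medians between -0.14 and 0.07, apart from egg and yolk genes (0.33, 4 genes) and heat shock genes (0.35, 6 genes).

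Genes of the other male reproductive organs gave no calls. None of 27 accessory gland genes, which encode seminal fluid proteins, was called, beside 19.4% of all genes tested called higher and 1.18% lower. Their median difference was 0.06 (-0.39 to 0.45). Their held-out medians were -0.10 and -0.04, of the opposite sign. The per-line median of these genes ran from 8.14 to 9.61 in the low class (median 8.68) and from 7.96 to 9.52 in the high class (median 8.70). Acp98AB, the member with the largest difference, ran from 7.19 to 11.83 in the low class and from 7.07 to 12.27 in the high class. None of 5 ejaculatory duct and bulb genes was called. Their summed level ran from 2746 to 8659 FPKM in the low class and from 2358 to 8724 FPKM in the high class.

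Markers of other tissues gave few calls, but some lists lay on the lower side and heat shock genes on the higher side. None of 12 flight muscle, 12 gut, 7 neuron, 9 photoreceptor, 11 antimicrobial peptide and 4 egg and yolk genes was called. Over all genes tested, 19.4% were called higher and 1.18% lower. All 12 flight muscle genes had a negative difference, with a median of -0.11, and held-out medians of -0.09 and -0.14 with none positive. All 7 fat body genes were negative as well, with a median of -0.14 and held-out medians of -0.28 and -0.29. The 7 neuron genes were all negative between the classes (median -0.08), but 5 of them were positive in replicate 2 and none in replicate 1. These levels moved alongside the germ line lists, and their part in the results was not tested. Among 7 fat body genes, to (takeout), a secreted protein linked to feeding and the clock, was called lower. Among 6 heat shock genes Hsp27 was called higher, at 3.84 ± 0.33 and 4.17 ± 0.49 (SD, n = 40 lines each). All 6 heat shock genes had a positive difference, with a median of 0.35 and held-out medians of 0.31 and 0.28. In the held-out libraries all 6 were positive in both replicates. Summed flight muscle levels ran from 3046 to 6683 FPKM in the low class and from 3041 to 5299.8 FPKM in the high class. Among 83 ribosomal protein genes, 3 were called higher, beside 19.4% of all genes tested, and 1 lower, beside 1.18%. Those called higher were RpL10Aa, RpS19b and RpL37-2. RpL10Aa, a ribosomal protein gene copy with a higher level in males than in females, had medians of 5.87 and 6.55. The ribosomal protein genes had a median difference of 0.06 with 74 of 83 positive, but held-out medians of -0.08 and -0.09 with 8 and 7 positive. None of 155 small nucleolar RNA genes was called. Their median difference was 0.07 between the classes but -0.24 and -0.28 in the held-out libraries. With the mean small nucleolar RNA level as a covariate, 2892 genes were called higher and 122 lower.

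The higher calls were concentrated in genes that females hardly express. Genes whose male level was at least 5 log2 units above their female level, over all 200 lines, made up 17.6% of the genes tested and 59.1% of those called higher. Of these 2635 male-limited genes, 1719 (65.2%) were called higher and 2 lower. Their median difference was 0.59, with quartiles of 0.44 and 0.65, and 2427 of them (92.1%) had a positive difference. These differences, and those of the groups below, were taken in the libraries that ranked the lines. In the held-out libraries the male-limited genes had medians of 0.48 and 0.47, in replicate 2 and replicate 1. There 2310 and 2360 of the 2635 were positive. Genes with a smaller male excess of 1 to 5 log2 units gave 10.0% higher calls and a median of -0.04. Genes with a sex difference under 1 gave 8.66% and -0.02, and genes at least 1 log2 unit higher in females gave 11.4% and 0.07.

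The per-line median over the 2635 male-limited genes followed the score, in the same libraries that ranked the lines. It ran from 3.11 to 4.41 in the low class (median 3.74), from 3.50 to 4.47 in the middle class (median 3.98) and from 3.98 to 4.60 in the high class (median 4.24). Line 325 had the lowest value, 3.11, and line 642 the highest, 4.60, so the lines at the ends of the ranking were also at the ends of this wider set. The same median over 6442 genes with a sex difference under 1 was 3.63, 3.64 and 3.68 in the low, middle and high class. FPKM values are shares of a library, so differences are relative to its other genes. Centring each library on the median of its genes moved the median difference of all genes tested by 0.10, and 2391 genes were then called higher and 950 lower, 71.6% of calls being higher against 94.3% before.

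**Figure D5:**
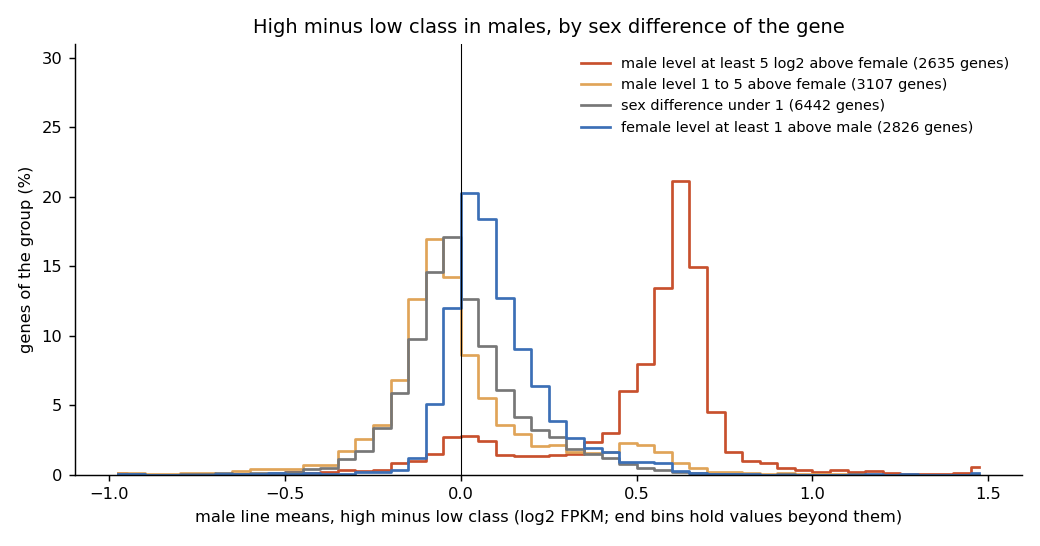
Share of genes (%) by their high-minus-low difference of male line means (log2 FPKM), for 4 groups of genes set by the difference between male and female levels over all lines. The male-limited genes form a peak near their median of 0.59 with a smaller group near 0, and the other 3 groups peak near 0.

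Within the male-limited genes the median difference was alike on the large chromosome arms and varied by kind and length of gene. It was 0.59 on 2L, 0.60 on 2R, 0.58 on 3L, 0.60 on 3R and 0.61 on X, where 81.5% of 297 genes were called higher against 61.8% of 623 on 2L. The 4 genes on arm 4 had 0.47 and the 6 on Y 0.56. Protein-coding genes had a median of 0.60 with 78.3% called higher, non-coding RNA genes 0.51 with 26.2%, and the 160 transcribed regions with no gene identifier 0.45 with 33.1%. By exon length the median was 0.45 below 500 bases, with quartiles of 0.05 and 0.66 and 30.3% called higher. It was 0.61 in the next length class above it, with 62.2% called, and 0.55 in the longest class, with 93.3% called. Differences between these groups were not tested. A total of 208 male-limited genes had no positive difference. All 27 tested accessory gland genes were male-limited and 9 of them were among the 208, whereas 48 male-limited genes of the testis lists included none. These counts are from the libraries that ranked the lines. In the held-out libraries, 8 of the 27 accessory gland genes were positive in each replicate. All 22 sperm chromatin and late spermatid genes were positive in both.

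The 8 largest higher calls by the naming rule were male-limited genes. CR11023, annotated as a pseudogene on 2L, had medians of 3.23 and 3.97 and a difference of means of 1.56, and its lowest low-class line sat at the bottom of the scale. Raising the added constant to 1 FPKM made its difference 1.00. CG44227, on 3R, followed with medians of 2.47 and 3.51, and CG33225, on 2R, with 3.32 and 3.97. The difference of means of CG33225 was 1.07, and its lowest low-class line was at the bottom of the scale. CG30430, on 2R, was the most abundant of the 8, with a low-class range of -0.50 to 8.96 (median 8.24) and a high-class range of 8.68 to 9.27 (median 8.95). CG15580, CG12347, CG43750 and CG15395 differed by 0.89 to 1.01 in their means, and single low-class lines widened some of these. CG12347, whose lowest low-class line was at the bottom of the scale, had medians of 3.33 and 3.99 beside a difference of means of 0.99. CG15580, with a lowest line at -3.85, had medians of 3.80 and 4.48, and CG43750, with a lowest line at -2.75, of 4.50 and 5.20.

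Genes called lower showed small differences. Their median was -0.12, against 0.56 for those called higher, and 4 of the 177 were lower by 0.5 or more: Npc2e, lncRNA:CR44135, fiz and Npc1b. Fiz (fezzik), an ecdysone oxidase, ran from 4.57 to 8.64 in the low class (median 6.50) and from 4.63 to 7.49 in the high class (median 5.92). Its held-out differences were -0.58 ± 0.17 and -0.59 ± 0.18 (SE), with limma adjusted p of 0.00628 and 0.00811. Npc1b, a sterol transporter of the midgut, had medians of 3.62 and 2.92. Npc2e, a gene of a sterol-binding protein family, averaged 2.29 ± 1.24 and 1.19 ± 1.98 (SD, n = 40 lines each). The others by the naming rule were Pebp1 at -0.43, CG15408 at -0.37, sturkopf, a lipid droplet protein, at -0.36, to at -0.34, Elo68alpha, a fatty acid elongase, at -0.32 and CG15155 at -0.29. The count of lower calls depended on the analysis. It was 106 without the 7 lines that nearly lacked an Mst84D copy, 950 after centring, 539 and 571 with 1 held-out test in place of 2, and 1901 with both replicates in 1 fit. That fit tested the libraries that had ranked the lines.

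Sisters of the same lines were then compared, since female libraries took no part in the ranking. None of 10931 genes tested in females was called higher or lower (0%) by limma at an adjusted p below 0.05, while 723 had an unadjusted p below 0.05. The smallest adjusted p was 0.534, and the median standard error of a difference was 0.06 log2 units. Of the genes called in males, 1272 were tested in females and none was called in both sexes. The absence of calls does not show that the sexes differed. Of 170 genes called lower in males, 135 had a negative difference in females, with a median of -0.05 against -0.11 for the same genes in males. Of 1102 called higher, 908 had a positive difference in females, with a median of 0.04 against 0.35 in males, while 6759 of all 10931 genes were positive. Some named genes of the lower group had female differences close in size to the male ones, and others had smaller ones. Fiz differed by -0.53 in females (limma unadjusted p of 0.00189, adjusted p of 0.682) and by -0.54 in males. For sturkopf the values were -0.36 in females (limma unadjusted p of 0.00076, adjusted p of 0.662) and -0.36 in males. CG15408 had -0.41 and -0.37, and Npc1b -0.43 and -0.52, in females and males. Smaller female differences were those of Pebp1 (-0.22 against -0.43 in males), to (-0.21 against -0.34) and CG15155 (-0.15 against -0.29). Germ line genes of both sexes can be read side by side. Aub averaged 5.48 in low-class and 5.55 in high-class females, AGO3 6.26 and 6.24, and the spermatocyte-listed twe, a meiotic phosphatase also used in the ovary, 5.59 and 5.64. The difference between the sexes in these effects was not tested.

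Last, variant density was compared between the classes. None of 30831 genes and transcribed regions was called higher or lower (0%) by limma, while 1327 had an unadjusted p below 0.05, and the smallest adjusted p was 0.95. Variants in Mst84Dd, the ranking gene with the widest difference, were listed in 71 of the 200 lines, 19 of the low and 14 of the high class. Lines with no variant sit at the floor of this scale. The standard error of the Mst84Dd density difference was 1.34, so only large differences could be called for such genes.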

How the data were processed

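Expression was deposited by the authors on the log2 scale of FPKM, for each gene in each library, with 0.001 FPKM added before the logarithm. They also deposited a table of line means and a table of log2 variant density per gene and line. The submitters' processing notes name BWA 0.7.10, STAR 2.4.0e, Cufflinks 2.2.1, cutadapt, HTSeq and edgeR with builds BDGP5 and dm3, without saying which step made which values. Of 35014 features, 17097 carried FBgn identifiers, of which 16733 matched a symbol in the BDGP6.54 annotation (Ensembl release 115). That annotation gave names, arms and exon lengths only, and no coordinates are printed.

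Depth was read from the steps between low values, a median of 97.6% of which were whole reads within 0.05 reads. It is an estimate of the denominator of FPKM, and intervals from it were not computed.

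Male differences of line means are descriptions, since the same libraries ranked the lines. Held-out tests, female tests and variant density tests used limma 3.58.1 in R 4.3.3, after leaving out genes whose mean over the libraries of that sex was below 0. Density was tested for genes with variants in at least 20 lines. Correlations and summaries were computed in Python 3.11.15 (pandas 2.3.3, scipy 1.17.1, numpy 2.4.6). Tests were two-sided and adjusted over all genes tested. The held-out test and the test of line means were also run on simulated male data. There the line effects were independent between genes and values had no floor, unlike these data. The density test and the correlation were not simulated. The ranking genes, gene lists and tests were chosen with earlier results of these data known. Named genes were the ranking genes, up to 4 members per list with the largest difference, and the 8 largest called differences in each direction in males with a symbol and a mean of at least 2. Genes outside this rule (those left uncalled in a list, aub and twe in females, Npc2e, lncRNA:CR44135, RpS19b and RpL37-2) were named after their values were seen. ProtA and ProtB are listed in older annotation as Mst35Ba and Mst35Bb. Gene symbols of the lists that matched no feature, such as kl-3, kl-5, nos and vas, and the mitochondrial genes were not analysed here.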

Additional observations from a re-analysis of the deposited data

How the results depend on the processing

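The number of genes called higher in males, 2910, lay between 2391 and 3324 under every alternative run: another pseudocount, centring, no filter, 30 or 60 lines per class, other rankings, lines left out, depth or small nucleolar RNA level as a covariate, a slope over all lines, and both replicates in 1 fit. The fit of both replicates tested libraries that had ranked the lines, so it gives no held-out count. Leaving out line 45, of the middle class, left both classes unchanged, so that run was no test of the counts here or below. The number called lower, 177, was less stable. It was 950 after centring, 79 with no filter on low values, 106 without the 7 lines with a reduced Mst84D copy and 330 for a slope on the score over all 200 lines. With 1 held-out test in place of 2, it was 539 without replicate 1 and 571 without replicate 2. The cause of these shifts was not tested, except that 1 test asks less than 2.

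Libraries of the same replicate number shared little deviation at the median over pairs of lines. Whether some of the lines shared more was not tested. The difference between replicates of a line had a median correlation of 0.04 with that of another line (-0.28 to 0.41), and 17.8% of pairs were above 0.1. With both replicates in 1 fit, the replicate block gave 3270 higher and 1901 lower calls, and the fit without the block 3321 and 1737. Both fits tested the libraries that had ranked the lines, so their counts are not held-out results.

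In females the count was 0 under all alternatives run but 2. With 30 lines per class it was 1 (rswl), and for the slope on the score it was 3 (CrzR, CG1635 and the unnamed XLOC_023515). Variant density gave 0 calls under every alternative run. The replicate correlation of the score was 0.676 without the 7 lines and between 0.790 and 0.860 otherwise. Of 1145 recomputed male differences of named genes and list medians, 1119 moved by less than the spread between replicates. The other 26 moved more, and none of the called genes changed sign. Of the called genes named, CG15580 moved from 1.01 to 0.65 when lines were ranked without the Mst84D genes. The ranking gene Mst84Db moved from 1.04 to 0.61 in that run, in which it no longer took part in the score. Low values limit the genes near 0 log2 FPKM, where 1 pseudocount or another moves a difference.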
